A study of Mus musculus with 5 samples.

Results

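Hdc and 7 genes used as neutrophil markers (S100a8, S100a9, Csf3r, Cxcr2, Il1b, Retnlg and Mmp9) were followed through bulk RNA-seq of 5 mouse lung tumours. They are 8 of the 54532 genes in the deposited table of read counts, matched there by gene symbol. The tumours are small cell lung cancer, a cancer of neuroendocrine cells, of the genotype labelled RPP, whose letters the labels leave unexplained and which both groups share. The 3 LSN tumours were treated with LSN, which the series describes as inhibiting Aurora A, a kinase of dividing cells, and the 2 vehicle tumours are the controls. The sources used here give no dose, length of treatment, animal age or sex. Each library came from a lung tumour frozen at necropsy, labelled as tumour cells, and markers of blood, stroma and lung tissue were detected in it. The 8 genes were chosen from measured values of these same tumours, namely the LSN and vehicle levels of Hdc and of neutrophil markers, so their differences between the groups are given as a description without a test.

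Neutrophils are short-lived white blood cells that leave the bone marrow in response to the growth factor G-CSF and enter tissues along gradients of chemokines that bind CXCR2. They store antimicrobial proteins and proteases in granules, and their cytoplasm is rich in calprotectin, the pair of calcium-binding proteins S100A8 and S100A9. Hdc encodes histidine decarboxylase, which makes histamine from histidine. It is best known from mast cells, basophils and the enterochromaffin-like cells of the stomach, and in the mouse it is also used in immature myeloid cells and neutrophils. In lung tumours, neutrophils and related myeloid cells are known both for supporting tumour growth and for restraining T cells.

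The counts behind these genes were small. Libraries held 17439049 to 19766604 counts, and the 8 genes together took 355, 119 and 451 reads in LSN replicates 1, 2 and 3, against 550 and 1126 reads in vehicle replicates 1 and 2. Levels are given as CPM, counts scaled to library size and by TMM, a factor for library composition. The floor of 3 counts lay at 0.159 to 0.167 CPM. Intervals given below are exact 95% Poisson intervals and cover counting error only. The mitochondrial share of counts was 0.942 to 1.75%. The neuroendocrine label held in every tumour: Insm1 and Chga, which mark these cancer cells, each had at least 3078 reads in each library.

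The start regions of 3 of the genes are shown because they carry the main contrast: S100a8 and S100a9 encode partners of one protein complex and lie side by side on chromosome 3, whereas Hdc lies on chromosome 2 and varied differently. RefSeq (build GRCm38.p6) listed such a region for 7 of the 8 members. Each runs from 250 bases before to 50 bases after the start annotated by RefSeq, 5′ to 3′ on the strand of the gene. The deposited table places some starts elsewhere. Its Hdc gene, on the minus strand, reaches 126619299, so the whole Hdc window lies inside it. Its S100a8 gene begins at 90668978, before the RefSeq start. Capitals mark matches, on either strand, to TTGCNNAA (the core bound by C/EBP factors), GAGGAA (the core bound by PU.1) or TATAAA (the TATA box).
S100a8, chr3:90668821-90669120, plus strand: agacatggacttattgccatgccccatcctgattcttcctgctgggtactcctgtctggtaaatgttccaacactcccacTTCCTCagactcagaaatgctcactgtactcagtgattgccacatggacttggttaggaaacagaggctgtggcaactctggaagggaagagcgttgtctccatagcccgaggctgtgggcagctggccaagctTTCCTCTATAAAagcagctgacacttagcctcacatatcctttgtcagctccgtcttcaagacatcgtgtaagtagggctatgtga
S100a9, chr3:90695672-90695971, minus strand: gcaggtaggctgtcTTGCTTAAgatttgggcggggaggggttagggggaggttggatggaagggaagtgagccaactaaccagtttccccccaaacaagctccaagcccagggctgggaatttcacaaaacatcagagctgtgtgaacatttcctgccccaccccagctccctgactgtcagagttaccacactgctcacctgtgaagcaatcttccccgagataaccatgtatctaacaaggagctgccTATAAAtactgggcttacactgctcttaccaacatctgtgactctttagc
Hdc, chr2:126618629-126618928, minus strand: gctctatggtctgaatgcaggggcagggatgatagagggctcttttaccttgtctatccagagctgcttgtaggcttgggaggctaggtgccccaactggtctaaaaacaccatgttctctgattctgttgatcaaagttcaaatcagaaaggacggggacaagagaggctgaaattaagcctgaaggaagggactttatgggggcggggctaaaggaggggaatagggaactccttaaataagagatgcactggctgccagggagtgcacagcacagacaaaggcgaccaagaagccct

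The S100a8 region held the PU.1 letters at 2 places, both on the opposite strand, the second directly followed by the TATA box 30 bases before the start, and no C/EBP match. The S100a9 region held 1 C/EBP match, 236 bases before the start, and a TATA box at the annotated start itself. None of the 3 strings occurred in the Hdc window, which does not cover the bases before the start of Hdc in the deposited table. Among all 32851 regions of that length in the table, 10.8% held the C/EBP letters, 28.3% the PU.1 letters and 13.6% the TATA letters. The matches do not overlap one another and describe letters only.

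Hdc (build mm10, as for all coordinates of genes here; chromosome 2, 126593667 to 126619299, minus strand) had the most reads of the 8 genes in both vehicle tumours. It had 88, 25 and 37 reads in LSN replicates 1, 2 and 3, against 375 and 490 in vehicle replicates 1 and 2. In CPM this was 4.86 (3.90 to 5.99), 1.34 (0.867 to 1.98) and 1.96 (1.38 to 2.70) in the LSN tumours and 20.2 (18.2 to 22.3) and 27.4 (25 to 29.9) in the vehicle tumours. All LSN tumours lay below both vehicle tumours, and the counting interval of the highest LSN value ended well below that of the lowest vehicle value. Hdc averaged 2.72 ± 1.88 CPM in LSN tumours (SD, n = 3), against 23.8 ± 5.08 CPM in vehicle tumours (SD, n = 2), a log2 fold change of -3.12 ± 0.67 (SE). Leaving out any 1 tumour kept this log2 fold change between -3.85 and -2.80.

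**Figure D1:**
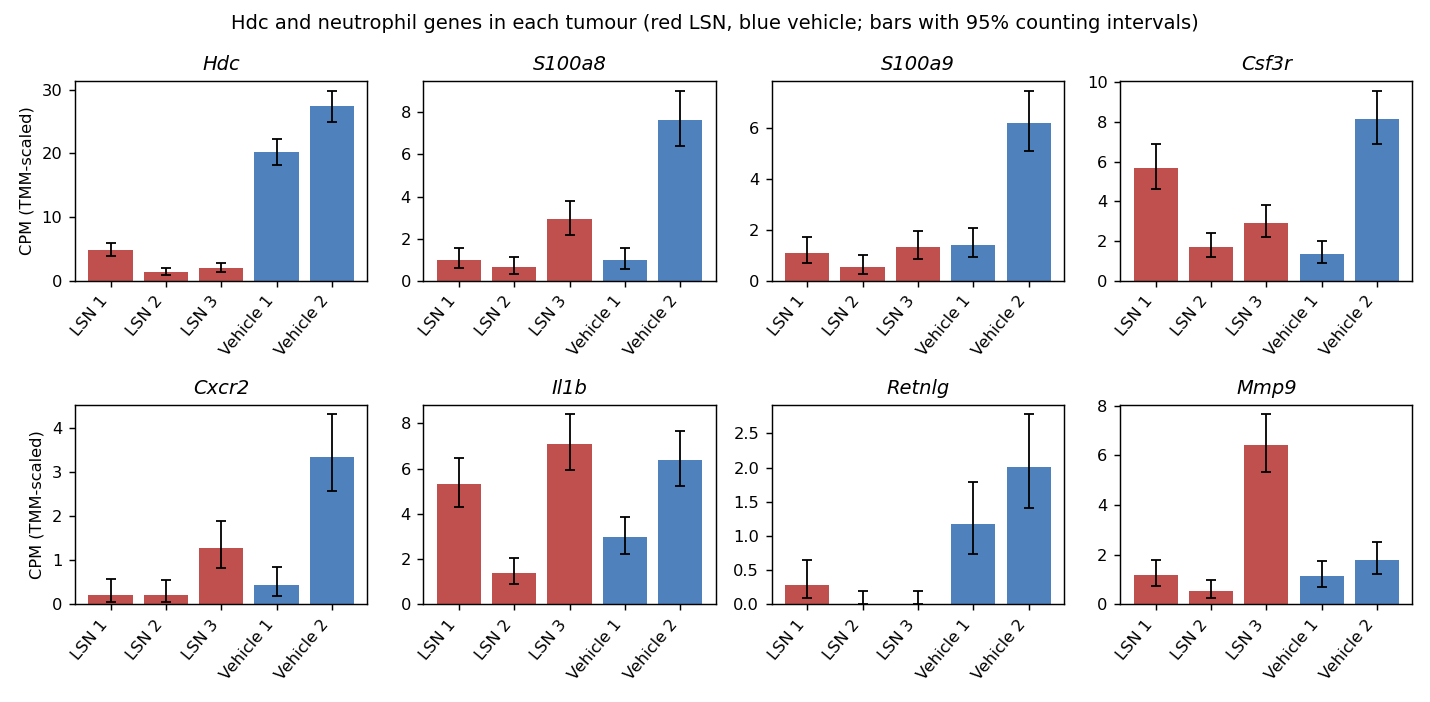
Level of each of the 8 genes (TMM-scaled CPM, linear axis starting at 0, a scale of its own in each panel) in LSN replicates 1 to 3 (red) and vehicle replicates 1 and 2 (blue); bars are single tumours and whiskers exact 95% Poisson intervals. Hdc and Retnlg are low in all LSN tumours, the calprotectin genes and Cxcr2 are highest in vehicle replicate 2, and Mmp9 is highest in LSN replicate 3, at 6.41 CPM.

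Both calprotectin genes were highest in a single vehicle tumour. S100a8 (chromosome 3, 90668978 to 90670035) had 0.994, 0.643 and 2.91 CPM in the LSN tumours, against 0.968 and 7.65 CPM in the vehicle tumours, so vehicle replicate 1 lay within the LSN range. S100a9 (chromosome 3, 90692632 to 90695721) had 1.10, 0.536 and 1.32 CPM with LSN, against 1.40 and 6.20 CPM with vehicle. The S100a9 groups did not overlap, but the gap was that of 25 reads in LSN replicate 3 and 26 reads in vehicle replicate 1, which is inside counting error. Log2 fold changes were -1.50 ± 1.10 (SE) for S100a8 and -1.93 ± 0.85 (SE) for S100a9. Without vehicle replicate 2 they were 0.65 for S100a8 and -0.50 for S100a9.

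The receptors differed from each other in the LSN tumours. Cxcr2 (chromosome 1, 74153989 to 74161246), the receptor for the chemokines that draw neutrophils into tissue, had 0.221, 0.214 and 1.27 CPM with LSN, against 0.430 and 3.35 CPM with vehicle. Only LSN replicate 3 and vehicle replicate 2 had more than 8 reads of it. Csf3r (chromosome 4, 126024550 to 126044440), the G-CSF receptor, had 5.69, 1.71 and 2.91 CPM with LSN, against 1.34 and 8.15 CPM with vehicle. Vehicle replicate 1 was the lowest tumour for Csf3r, and LSN replicate 1 was second after vehicle replicate 2. The ratio of Csf3r to Cxcr2 reads was 25.8, 8 and 2.29 in LSN replicates 1, 2 and 3, against 3.12 and 2.43 in vehicle replicates 1 and 2. In LSN replicate 1, Csf3r was thus well above the floor while Cxcr2 rested on 4 reads. Log2 fold changes were -1.72 ± 1.23 (SE) for Cxcr2 and -0.47 ± 0.95 (SE) for Csf3r, and 0.40 and 1.35 without vehicle replicate 2.

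Il1b (chromosome 2, 129364570 to 129371139), the precursor of the inflammatory cytokine interleukin 1 beta, had 5.30, 1.39 and 7.09 CPM with LSN, against 2.96 and 6.36 CPM with vehicle. The groups overlapped fully and their means were 4.60 ± 2.92 CPM in LSN tumours (SD, n = 3), against 4.66 ± 2.41 CPM in vehicle tumours (SD, n = 2). Its log2 fold change was -0.02 ± 0.84 (SE), 0.64 without vehicle replicate 2 and 0.41 without LSN replicate 2. An annotated antisense gene, Il1bos, overlaps it, and the libraries do not keep the strand. Il1bos had 0, 2 and 0 reads in the LSN tumours, against 22 and 1 in the vehicle tumours, so reads of the pair cannot be told apart, mainly in vehicle replicate 1. No other member overlaps another gene of the deposited table.

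Mmp9 (chromosome 2, 164940780 to 164955850), gelatinase B, a protease that neutrophils keep in granules and macrophages also secrete, was the 1 member with a positive log2 fold change, 0.89 ± 1.18 (SE). It had 1.16, 0.536 and 6.41 CPM with LSN, against 1.13 and 1.79 CPM with vehicle. The direction came from LSN replicate 3, whose 121 reads compare with 10 to 32 in each other tumour. Without that tumour the log2 fold change was -0.78.

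Retnlg (chromosome 16, 48872621 to 48874496), which encodes resistin-like gamma, a secreted protein made by mouse neutrophils, had 5, 0 and 0 reads with LSN, against 22 and 36 reads with vehicle. The levels were 0.276, 0 and 0 CPM with LSN and 1.18 and 2.01 CPM with vehicle, and the groups did not overlap. With 0 reads the counting interval in LSN replicates 2 and 3 reaches 0.198 and 0.195 CPM. The log2 fold change, -4.03 ± 1.47 (SE), rests on these low counts, and was -7.89 without LSN replicate 1. Its paralog Retnla, which encodes FIZZ1, a protein of alternatively activated macrophages and of lung epithelium, was far more abundant, with 1034, 13 and 183 reads with LSN, against 6229 and 10473 with vehicle. Retnlg made up 0.481% (95% exact Clopper-Pearson interval 0.156 to 1.12%) of the reads of the pair in LSN replicate 1, against 0.352% (0.221 to 0.532%) and 0.343% (0.240 to 0.474%) in the vehicle tumours. In LSN replicates 2 and 3, with 0 reads of Retnlg, the upper bounds of that interval were 24.7% and 2%, and a limit of 3 counts lies at 23.1% and 1.64%. The intervals of the 3 tumours with Retnlg reads overlapped. The coding sequences of both genes (GENCODE M21) are 84.2% identical over 354 aligned bases, the longest identical stretch of their transcripts is 49 bases, and 8.61% of the 25-base words of the Retnlg transcript occur in that of Retnla. The sources used here do not say how reads fitting both genes were counted, so the Retnlg counts are uncertain, and whether reads of Retnla contribute to them was not tested.

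**Figure D2:**
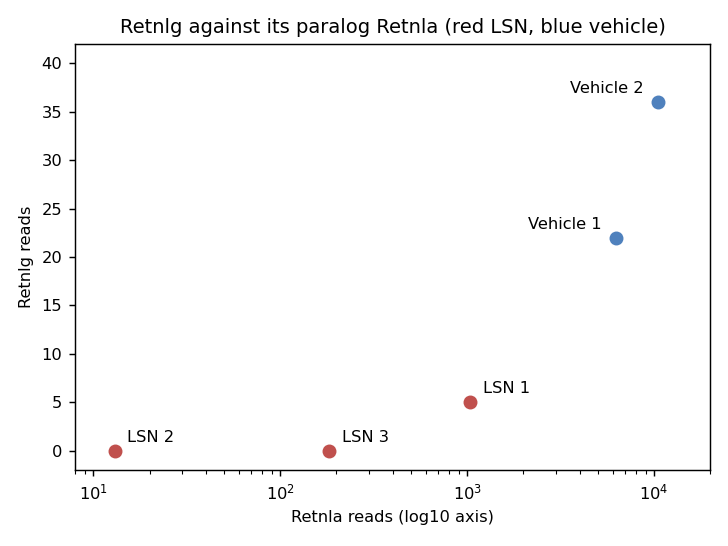
Reads of Retnlg (linear axis) against reads of its paralog Retnla (log10 axis) in each tumour, LSN in red and vehicle in blue. LSN replicates 2 and 3 have 0 Retnlg reads at 13 and 183 Retnla reads, LSN replicate 1 has 5 at 1034, and vehicle replicates 1 and 2 have 22 at 6229 and 36 at 10473.

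Across the 8 genes, all passed the filter on low counts, 7 had a log2 fold change below 0, 3 were lower in every LSN tumour (Hdc, S100a9 and Retnlg) and 0 were higher in every LSN tumour. Over all 17906 genes kept, 10.4% were lower in every LSN tumour and 8.48% higher, and the median log2 fold change was 0.03, with 46.8% below 0. Because the members were picked with this contrast known, nothing is read from their counts. Without vehicle replicate 1 the members lower in every LSN tumour were 6, at a background of 26.3%. Without LSN replicate 3 they were 4 (15.9%), and without any other tumour they were 3 (15.8 to 22.1%). The 4 include Cxcr2, which did not pass the filter there. These member counts used the scaling of all tumours and no filter. The backgrounds used genes filtered and scaled anew, so the sets differ. Without vehicle replicate 2, Csf3r was higher in every LSN tumour, at a background of 20.3% of genes. Its narrowest gap, 32 reads for LSN replicate 2 against 25 reads for vehicle replicate 1, is inside counting error. In the fit of all genes, edgeR's quasi-likelihood test called 0 genes (0%) at an adjusted p of 0.05, with 764 at an unadjusted p under 0.05. With limma-voom the calls were likewise 0, and 858 genes had an unadjusted p under 0.05. DESeq2 called 100 of 18547 genes (0.539%), with 1218 at an unadjusted p under 0.05.

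Per kilobase of gene length, the order of the genes differed between the groups. In mean CPM per kilobase, Il1b (2.41), S100a8 (2.18) and S100a9 (1.89) led in the LSN tumours, followed by Csf3r (0.953), Mmp9 (0.763), Hdc (0.426), Cxcr2 (0.187) and Retnlg (0.155). In the vehicle tumours S100a9 (7.27) and S100a8 (6.21) led, followed by Hdc (3.72), Retnlg (2.69), Il1b (2.44), Csf3r (1.32), Cxcr2 (0.620) and Mmp9 (0.412). Neighbours within the first 3 places of either group lay within the spread between tumours, since S100a8 alone ran from 0.927 to 4.2 in the LSN tumours and from 1.39 to 11 in the vehicle tumours.

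The make-up of the 8 genes' reads also differed by tumour. Hdc took 24.8, 21.0 and 8.20% of them in LSN replicates 1, 2 and 3, against 68.2 and 43.5% in vehicle replicates 1 and 2. There were 0.330, 0.266 and 0.0894 Hdc reads per read of the other 7 genes with LSN, against 2.14 and 0.770 with vehicle. Hdc did not follow the summed reads of the others: vehicle replicate 1 had the second highest Hdc but fewer reads of the other 7 genes (175) than LSN replicates 1 (267) and 3 (414). Mmp9 took 26.8% of the reads in LSN replicate 3 and 2.84 to 8.40% elsewhere.

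**Figure D3:**
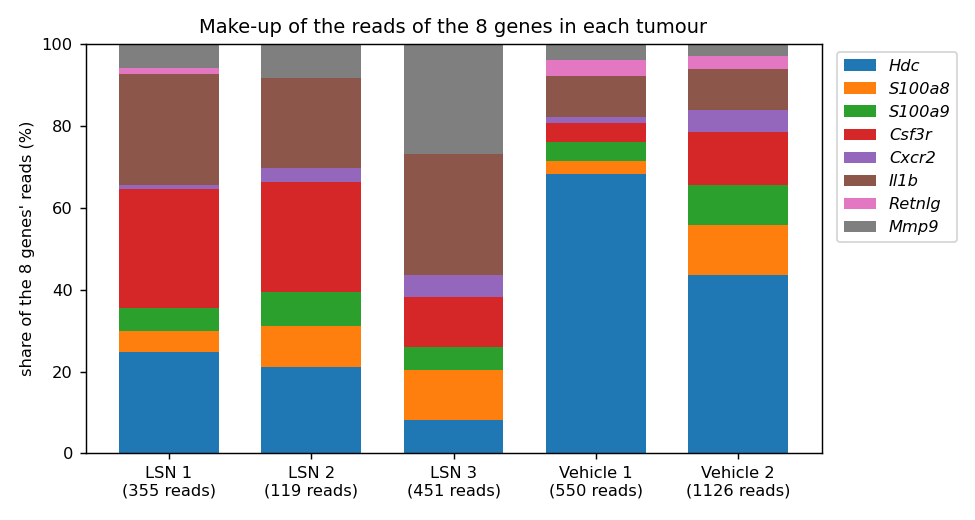
Share (%) of the reads of the 8 genes that each gene took in LSN replicates 1 to 3 and vehicle replicates 1 and 2, with the total number of reads under each bar. Hdc takes 8.20 to 24.8% in the LSN tumours and 43.5 to 68.2% in the vehicle tumours, and the Mmp9 share is widest in LSN replicate 3.

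How closely the genes varied together was described by centring the log2 CPM of each gene on its mean over the 5 tumours and taking the root mean square difference between profiles, a measure in log2 units that is smaller for more alike profiles. With a difference of 0.256, Cxcr2 was the 5th nearest of 17905 genes to S100a8, and S100a8 the 3rd nearest to Cxcr2. S100a9 ranked 60th for S100a8 (0.522). Hdc was far from these: its difference was 1.09 to S100a9, 1.57 to S100a8 and to Cxcr2, and 2.08 to Mmp9. The nearest gene to Hdc was Retnlg (0.217, rank 1), which falls to rank 470 when a prior count of 0.5 replaces the 2 used for log2 CPM. Retnlg had 0 reads in LSN replicates 2 and 3, where its log2 CPM depends on the prior count. With the prior count of 2, Hdc and Retnlg were near each other and at least 1.09 from the other 6 genes. Among those 6, S100a8 lay nearest to Cxcr2 and S100a9, S100a9 and Cxcr2 stood 0.617 apart, and Il1b stood 0.662 from Mmp9 and 0.698 from Csf3r. All profiles come from the same 5 libraries.

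**Figure D4:**
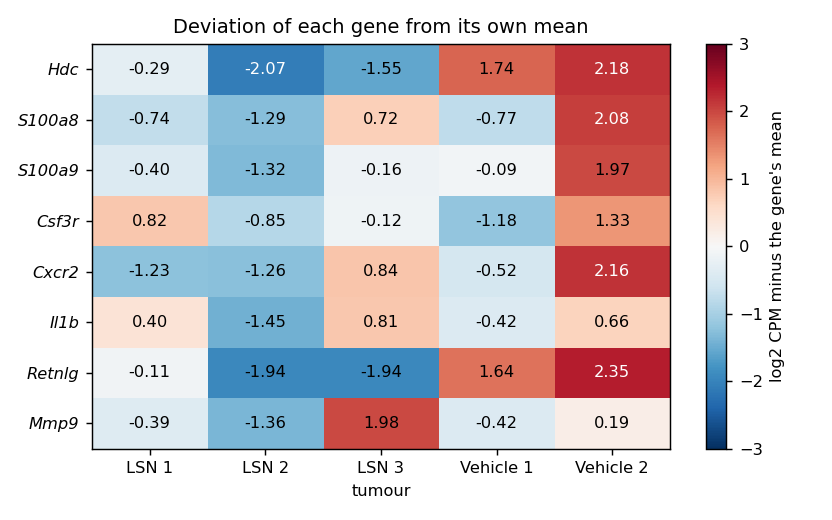
Deviation of log2 CPM from the gene's mean over the 5 tumours, for each of the 8 genes (rows) in LSN replicates 1 to 3 and vehicle replicates 1 and 2 (columns); red is above and blue below the mean. Hdc and Retnlg are above their means in the vehicle tumours alone, whereas S100a8, S100a9 and Cxcr2 are at least 1.97 above in vehicle replicate 2 and below their means in vehicle replicate 1.

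After Retnlg, the named genes nearest to Hdc, by the same measure and with a mean of at least 1 CPM, were Tinag (0.266), Cldn2, Cfap161, Dnah6, Col13a1, Lpar3, Cckar and Matn4 (0.341). Dnah6, a dynein of motile cilia, had 3.98, 0.965 and 1.22 CPM with LSN, against 17.5 and 13.3 CPM with vehicle. Cckar, a receptor for cholecystokinin, had 3.42, 0.804 and 1.16 CPM with LSN, against 12.4 and 10.2 CPM with vehicle. Cldn2, a tight junction protein, had 0.994, 0.268 and 0.265 CPM with LSN, against 2.85 and 4.86 CPM with vehicle. None of the 8 nearest named genes belongs to the neutrophil, mast cell or basophil lists used here. Those lists kept only 3 to 19 genes each of 17906 and leave out the members, Retnlg among them. Finding none among 8 genes is therefore uninformative. The genes nearest to the mean of S100a8 and S100a9 were Igkv12-44 (0.206), Itga7, Prkcq, Itih4, Lyz2, Btla, Ripk3 and Igha (0.318). They include lysozyme 2, an enzyme of neutrophils, macrophages and alveolar type 2 cells, at 785, 386 and 1050 CPM with LSN, against 645 and 2740 CPM with vehicle. They also include the immunoglobulin A heavy chain gene Igha, at 27.5, 23.6 and 89.7 CPM with LSN, against 31.3 and 229 CPM with vehicle. All 8 were highest in vehicle replicate 2, which follows from how they were chosen, since the mean of S100a8 and S100a9 is highest there.

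Of the genes set here as neutrophil markers, 5 had few or no reads, whereas Ltf had many in most tumours. Such counts do not measure how many neutrophils the tumours held. Ly6g, the surface marker by which mouse neutrophils are usually sorted, and Mpo, myeloperoxidase, had 0 reads in all 5 tumours. Ly6g, Ngp, Camp, Mpo and Elane together had 1, 7 and 0 reads with LSN, against 4 and 8 with vehicle. This sum leaves out Ltf, which had 3752, 7 and 339 reads with LSN, against 2632 and 4630 with vehicle. Ly6g belongs to a family of close paralogs, and how reads shared by them were counted is not known. The granule protein genes that were abundant, such as Ltf, Lcn2, Chil1, Hp and Lyz2, are also known from airway or alveolar epithelium. Ltf, lactoferrin, had 207, 0.375 and 17.9 CPM with LSN, against 142 and 258 CPM with vehicle. The summed level of the granule protein list was 1180, 520 and 1310 CPM with LSN, against 1240 and 4000 CPM with vehicle. The part of neutrophils in the values of the 8 genes was not tested, and in a bulk tumour fewer cells of a type and less RNA per cell cannot be told apart.

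The defining markers of mast cells did not follow the order of Hdc across the tumours, and those of basophils had too few reads to compare. Cpa3, Ms4a2, Fcer1a, Tpsb2, Cma1 and Mcpt4, which define mast cells, had together 97, 17 and 16 reads with LSN, against 9 and 15 with vehicle. They were thus highest in LSN replicate 1, where Tpsb2 had 44 reads and Mcpt4 30. The sums of 9 to 17 reads elsewhere were low both in the tumours with most Hdc and in those with least. The part of mast cells in the Hdc values was not tested. Mcpt8 and Prss34, markers of basophils, had 0 reads in all LSN tumours, against 3 and 0 with vehicle. Of 8 genes in the basophil list 3 passed the filter, all below 0 (median -0.69, 0.75 without vehicle replicate 2), with 0 called by edgeR or DESeq2. Of these, Il3ra, a subunit of the interleukin 3 receptor that other blood cells and vessels also use, had 4.86, 5.73 and 3.49 CPM with LSN, against 14.2 and 12.7 CPM with vehicle, and was lower in every LSN tumour as Hdc was. Kit, the stem cell factor receptor of mast cells that small cell lung cancer cells also express, had 115, 220 and 138 CPM with LSN, against 103 and 119 CPM with vehicle. Of 16 mast cell markers 5 passed the filter, 0 were called by any tool, and their median log2 fold change was 0.36. It was 1.15 with no count filter, 1.08 by DESeq2, and 1.09 and 1.60 without vehicle replicates 1 and 2. All 12 markers of enterochromaffin-like cells, most of which the tumour cells share, had a log2 fold change above 0 (median 0.43, 1.18 without vehicle replicate 1), of which edgeR and DESeq2 called 0.

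**Figure D5:**
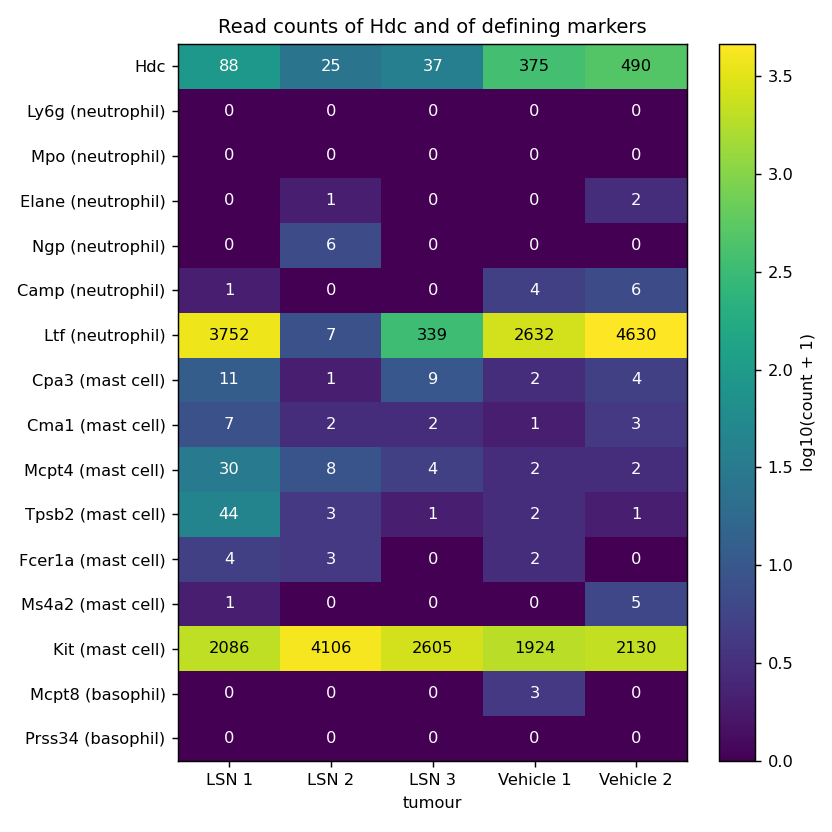
Read counts (numbers, with colour for log10 of the count plus 1) of Hdc and of genes set here as markers of neutrophils, mast cells and basophils. Columns are LSN replicates 1 to 3 and vehicle replicates 1 and 2. The counts do not measure how many of these cells the tumours held. Hdc has 375 and 490 reads in the vehicle tumours, where Cpa3, Cma1, Mcpt4, Tpsb2, Fcer1a and Ms4a2 have at most 5 each and Ly6g and Mpo have 0. Ltf has 2632 and 4630 reads there.

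The cell type list whose mean profile lay nearest to Hdc was that of normal lung epithelium, with a root mean square difference of 0.531, against 1.07 to 2.12 for the other lists with at least 3 genes kept. The summed level of its 14 markers was 2010, 389 and 1250 CPM with LSN, against 6890 and 8960 CPM with vehicle. Of these, 12 were lower in every LSN tumour, as were 10.4% of all genes kept. Their median log2 fold change was -2.27, with 0 called by edgeR or DESeq2. Red blood cell genes, a measure of blood in the pieces, summed to 294, 11.3 and 329 CPM with LSN, against 667 and 781 CPM with vehicle. Both lists separated the groups as Hdc did, and the part of lung tissue or blood in the Hdc values was not tested. For S100a9 the nearest list was that of neutrophil granule proteins (0.308), and for Mmp9 that of neutrophil surface and signalling genes (0.839). For S100a8 and Cxcr2 it was that of eosinophils (0.501 and 0.424). That list kept only 4 genes, of which Ear2 is also in the macrophage list. S100a8 lay almost as near to neutrophil surface and signalling genes (0.522). For Retnlg the nearest list was that of normal lung epithelium (0.674), for Csf3r that of macrophages and monocytes (0.450), and for Il1b that of T and NK cells (0.242).

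Histamine genes besides Hdc were measured for 11 members, of which 9 passed the filter. In the fit over all genes, edgeR called 0 of them up and 0 down (1 at an unadjusted p under 0.05) and DESeq2 0, with 7 below 0, a median of -1.09 and 3 lower in every LSN tumour. That median was -0.33 without vehicle replicate 1, -0.54 with no count filter and -0.53 by DESeq2. Of all 17906 genes kept, 10.4% were lower in every LSN tumour and 764 had an unadjusted p under 0.05 by edgeR. Hnmt, which inactivates histamine in cells, had 2.32, 2.68 and 1.96 CPM with LSN, against 6.08 and 4.02 CPM with vehicle. Maob, which acts after Hnmt in histamine breakdown, had 13.8, 1.93 and 5.66 CPM with LSN, against 17.4 and 31.6 CPM with vehicle. Also lower in every LSN tumour, Aldh1a1, an aldehyde dehydrogenase that is also abundant in airway cells, averaged 38.4 ± 19.6 CPM in LSN tumours (SD, n = 3), against 207 ± 203 CPM in vehicle tumours (SD, n = 2). Aoc1, the diamine oxidase that breaks down histamine outside cells, had 0.828, 9.38 and 2.65 CPM with LSN, against 15.1 and 4.13 CPM with vehicle. Slc18a2, which loads histamine into vesicles, averaged 9.75 ± 2.99 CPM in LSN tumours (SD, n = 3), against 6.80 ± 0.489 CPM in vehicle tumours (SD, n = 2), and its groups overlapped. Slc29a4, a monoamine transporter, had 51.6, 11 and 12.1 CPM with LSN, against 29.0 and 43.3 CPM with vehicle. Slc22a3, another uptake transporter, had at most 14 reads in any tumour. Among the receptors, Hrh3 was the most abundant, with 20.7, 26.0 and 12.1 CPM with LSN, against 22.4 and 16 CPM with vehicle, while Hrh1 and Hrh2 averaged at most 1.75 CPM in either group and Hrh4 had 2 reads in all. No receptor separated the groups.

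Attractants and growth factors of neutrophils were mostly scarce. Csf3, the gene of G-CSF, had 3, 4 and 3 reads with LSN, against 6 and 3 with vehicle. Cxcl1 had 3, 3 and 8 reads with LSN, against 3 and 14 with vehicle, and Cxcl2 had 1, 1 and 22 reads with LSN, against 0 and 13 with vehicle. These 2 CXCR2 ligands were highest in LSN replicate 3 and vehicle replicate 2, the tumours with most S100a8 and Cxcr2. Both rest on few reads, and Cxcl1 did not pass the filter. Cxcl3, another ligand, had 78 reads in LSN replicate 3 and 0 to 13 elsewhere. Cxcl5, a ligand made by lung epithelium, had 5, 1 and 1 reads with LSN, against 23 and 10 with vehicle, and so did not share that order. Ppbp and Pf4, chemokines of platelets, averaged at most 2.64 CPM in either group, and Csf2, Il6 and Il17a had at most 24 reads in any tumour. Cxcl15, lungkine, a chemokine of lung epithelium, fell by DESeq2 (adjusted p = 0.0141) but not by edgeR (adjusted p = 0.9996), with 39.0 ± 22.5 CPM in LSN tumours (SD, n = 3), against 308 ± 173 CPM in vehicle tumours (SD, n = 2). C3, the central complement protein, had 119, 81.6 and 227 CPM with LSN, against 208 and 267 CPM with vehicle. Hc, listed under its alias C5, had 30.0, 9.38 and 26.6 CPM with LSN, against 44.2 and 210 CPM with vehicle. Cxcl12, which holds neutrophils in bone marrow, had 26.7, 16.3 and 14.8 CPM with LSN, against 24.1 and 56.9 CPM with vehicle, and Csf1 averaged 10.9 CPM with LSN and 12.4 CPM with vehicle. Lif, a cytokine of the interleukin 6 family, was lower in every LSN tumour, with a log2 fold change of -1.35. Of the 16 genes 11 passed the filter, with 8 below 0 and 4 lower in every LSN tumour (10.4% of all genes kept). Their median was -0.74 (-1.58 without vehicle replicate 1). By edgeR 0 were called and 3 had an unadjusted p under 0.05, as had 764 of all 17906 genes.

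Other neutrophil genes gave 0 calls by edgeR or DESeq2 as well. The background for the counts below is 10.4% of all genes lower in every LSN tumour. By edgeR, 764 of all 17906 genes had an unadjusted p under 0.05. Granule protein genes were below 0 for 10 of the 11 kept of 16, with a median of -1.41, 3 lower in every LSN tumour and 3 at an unadjusted p under 0.05. The 3 were Lcn2, lipocalin 2, Chil1, a chitinase-like protein, and Hp, haptoglobin. Chil1 averaged 50.9 ± 23.8 CPM in LSN tumours (SD, n = 3), against 283 ± 176 CPM in vehicle tumours (SD, n = 2). Without vehicle replicate 2 the median was -0.26. Surface and signalling genes were below 0 for 14 of 18 kept of 22, with a median of -0.32, 0 that separated the groups and 0 at an unadjusted p under 0.05. Their median was 1.20 without vehicle replicate 2. Cytosolic and enzyme genes of mature neutrophils were below 0 for 11 of 19 kept of 24 (median -0.10, 0.10 without vehicle replicate 2), with 5 lower in every LSN tumour and 3 at an unadjusted p under 0.05. The 6 NADPH oxidase genes, which encode the oxidative burst complex of neutrophils and macrophages, were all below 0 (median -0.36, 0.75 without vehicle replicate 2), all overlapped and were all highest in vehicle replicate 2. Granulocyte transcription factors were below 0 for 6 of 8 kept of 9 (median -0.62; -0.25 without LSN replicate 2, and -1.13 and -0.13 without vehicle replicates 1 and 2), with Cebpb and Cebpd, C/EBP factors of myeloid and other cells, lower in every LSN tumour and the only 2 at an unadjusted p under 0.05. Cebpb averaged 21.3 ± 6.41 CPM in LSN tumours (SD, n = 3), against 43.3 ± 5.09 CPM in vehicle tumours (SD, n = 2). Cebpe, the C/EBP factor of granule formation, had at most 2 reads in any tumour.

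Some genes of the neutrophil lists were, like Mmp9, highest in LSN replicate 3; those given here were picked for that after their values were seen. Clec4e, the receptor Mincle, had 18.1 CPM in LSN replicate 3, 0.276 and 0.536 CPM in LSN replicates 1 and 2, and 0.430 and 5.97 CPM in the vehicle tumours. Padi4, the enzyme that citrullinates histones in neutrophil extracellular traps, had 29.8 CPM there, 1.77 and 7.02 CPM in the other LSN tumours, and 2.04 and 2.29 CPM in the vehicle tumours. Acod1, which makes itaconate, and Fpr2, a formyl peptide receptor, were also highest in LSN replicate 3, at 6.46 and 7.99 CPM. These genes were high in the tumour with most Mmp9 and Il1b, and Clec4e, Acod1 and Fpr2 were second highest in vehicle replicate 2.

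Relatives of the other members showed no called change by edgeR. Here too the background is 10.4% of all genes lower in every LSN tumour, and 764 of 17906 at an unadjusted p under 0.05 by edgeR. DESeq2 called 0.539% of the genes it tested. In the interleukin 1 family and inflammasome list, 13 of 15 kept of 16 were below 0 (median -0.34; -0.76 and -0.08 without vehicle replicates 1 and 2), 3 were lower in every LSN tumour, and 1 reached an unadjusted p under 0.05. That gene was Il33, an alarmin of lung epithelium and endothelium, at 8.94 ± 2.99 CPM in LSN tumours (SD, n = 3), against 62.1 ± 52.3 CPM in vehicle tumours (SD, n = 2), which DESeq2 called lower (adjusted p = 0.0292; edgeR adjusted p = 0.9996). Il1rn, the antagonist of the interleukin 1 receptor, had 6.02, 29.9 and 16 CPM with LSN, against 23.0 and 18.1 CPM with vehicle, and so overlapped like Il1b. Among 8 partners and receptors of calprotectin, 6 were below 0 (median -0.22; -0.86 and -0.02 without vehicle replicates 1 and 2) and 2 were lower in every LSN tumour, both at an unadjusted p under 0.05 by edgeR. These were Ager, the receptor RAGE and a marker of alveolar type 1 cells, and Cd36, a scavenger receptor, the 1 gene of this list that DESeq2 called (adjusted p = 0.0359). Cd36 averaged 37.7 ± 5.03 CPM in LSN tumours (SD, n = 3), against 91.5 ± 8.34 CPM in vehicle tumours (SD, n = 2). Tlr4, the other receptor ascribed to calprotectin, had 9.66, 16.8 and 6.35 CPM with LSN, against 12.4 and 12.0 CPM with vehicle. Of 18 matrix metalloproteinases and inhibitors, 16 passed the filter, 10 were below 0 (median -0.40; -0.81 and 0.14 without vehicle replicates 1 and 2), 3 were lower in every LSN tumour and 2 reached an unadjusted p under 0.05 (Mmp25 and Timp4), with 0 called by DESeq2. Timp1, the main inhibitor of MMP9, had 6.79, 7.82 and 3.92 CPM with LSN, against 8.39 and 31.3 CPM with vehicle. Mmp8, the collagenase of neutrophils, had 0.663, 2.36 and 0.529 CPM with LSN, against 0.753 and 4.13 CPM with vehicle, and so was not raised in LSN replicate 3 as Mmp9 was.

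Lists of other cells give the setting of these values, each with 0 genes called by edgeR. Over all genes, 10.4% were lower in every LSN tumour and DESeq2 called 0.539%. Endothelial genes were below 0 for 10 of 11 kept (median -1.26), 9 were lower in every LSN tumour, and DESeq2 called 2, Cldn5 (adjusted p = 0.000647), a tight junction protein of vessels, and Adgrf5 (adjusted p = 0.000187), an adhesion receptor. Macrophage and monocyte genes were below 0 for 9 of 20 (median 0.08; -0.25 without LSN replicate 1, and -0.47 and 0.92 without vehicle replicates 1 and 2). Their 1 gene called by DESeq2, Ccr2 (adjusted p = 0.0279), the chemokine receptor of inflammatory monocytes, averaged 2.49 ± 0.501 CPM in LSN tumours (SD, n = 3), against 10.9 ± 5.02 CPM in vehicle tumours (SD, n = 2). Medians were -0.80 for fibroblasts and smooth muscle (12 kept), -0.83 for B and plasma cells (10 kept), -0.54 for dendritic cells (8 kept), -0.43 for T and NK cells (13 kept), -1.88 for eosinophils (4 kept) and -0.12 for platelets (5 kept). Those for B and plasma, dendritic, T and NK cells turned positive without vehicle replicate 2 (0.41, 0.13 and 0.58), those for eosinophils and for fibroblasts and smooth muscle were then -0.34 and -0.34, and that for platelets was 0.14 by DESeq2. The tumour cell list, 12 neuroendocrine genes, had a median of 0.29 with 7 above 0, and 1.39 without vehicle replicate 1. Its 1 gene called by DESeq2 was Neurod1 (adjusted p = 0.000652), a transcription factor that sets a subtype of this cancer, at 0.401 ± 0.387 CPM in LSN tumours (SD, n = 3), against 24.2 ± 18.5 CPM in vehicle tumours (SD, n = 2). The part of these cell types in the values of the 8 genes was not tested.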

How the data were processed

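The authors deposited raw read counts per gene for 5 tumours, whole numbers with no normalization. Per the labels' protocols, libraries did not keep the strand, and paired reads were mapped to mm10 with STAR. The sources used here name neither the counting program nor its treatment of reads that map to several genes. Total counts are given in the report. Groups came from the treatment label. The labels do not tie the tumours to animals, so p-values measure only how far these samples spread, which may be technical. No other column of sample values was present.

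Genes were filtered with filterByExpr (minimum count 10, minimum total count 15), scaled by TMM and fitted across all genes with edgeR 4.0.16 (R 4.3.3; robust quasi-likelihood test), with Benjamini-Hochberg adjustment at 0.05. The SE is the log2 fold change divided by the square root of F. An exact permutation test of 3 against 2 tumours cannot give a p below 0.1. DESeq2 1.42.0 (the tool named in the labels), limma-voom (limma 3.58.1), RLE scaling, total counts, no count filter, a fit that was not robust and leaving out each tumour were the alternatives. Profiles used log2 CPM with a prior count of 2. Levels per kilobase used the gene length in the deposited table. Transcripts came from GENCODE M21 and were aligned with Biopython 1.88.

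The members, gene lists and marker lists were chosen with earlier results of these data known. The text names all members, the 8 genes nearest to Hdc and to the S100a8 and S100a9 mean, leaving out predicted genes, pseudogenes and genes under 1 CPM, and in each list its called genes, up to 4 of its most abundant genes, fixed defining markers, the histamine genes and the attractants. Genes named beyond this, namely Il1bos, Prss34, Il3ra, genes of the lists singled out for their values (such as Cebpe, Mmp8, Mmp25, Timp1 and Timp4) and those of LSN replicate 3, were chosen after their values were seen. Alias symbols were matched through the RefSeq table. The lists of eosinophils, dendritic cells, B and plasma cells, platelets, endothelium and fibroblasts served to compare profiles and to describe the tissue.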

Additional observations from a re-analysis of the deposited data

How the results depend on the processing

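All 40 log2 fold changes of the 8 members under RLE scaling, total counts, no count filter, a fit that was not robust or DESeq2 kept their sign and moved by less than the spread between tumours. Of 39 values that leave out 1 tumour, 6 changed sign: S100a8, Csf3r, Cxcr2 and Il1b without vehicle replicate 2, Il1b without LSN replicate 2 and Mmp9 without LSN replicate 3. Cxcr2 did not pass the filter without LSN replicate 3 and has no value there. Among list medians, 13 of 125 changed sign when 1 tumour was left out and 2 of 125 under the other settings. DESeq2 called 100 genes where edgeR called 0, and 36 to 483 when 1 tumour was left out. Genes lower in every LSN tumour numbered 2982 with no count filter and 2775 to 5015 without 1 tumour. Genes higher in every LSN tumour numbered 1006 with total counts and 2545 to 4706 without 1 tumour. The smaller number of tumours makes separation easier, and the cause of the other shifts was not tested. The likeness rank of Retnlg to Hdc was 1, and 470 with a prior count of 0.5. No paired analysis was possible because the labels give no number or animal that links an LSN tumour with a vehicle tumour. Cxcr2 and Retnlg rest on few reads, which widens their counting intervals.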
